A study of Saccharomyces cerevisiae with 4 samples.

Results

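The transcripts of 38 chaperone genes were followed in budding yeast, out of 7126 rows in the deposited table. They are a list of systematic names, and no measured value enters the rule, although the list was drawn up with earlier results of these data known. They comprise the cytosolic Hsp70 and Hsp90 proteins and their cochaperones, ribosome-bound Hsp70, Hsp40 proteins, the disaggregases, the mitochondrial folding machinery, the 8 subunits of the CCT ring and the regulator HSF1. Messenger RNA was sequenced in 4 libraries from the Saccharomyces cerevisiae strain BY4741, a haploid of mating type a used widely in the laboratory. Both groups expressed dCas9, a Cas9 without nuclease activity that a guide RNA brings to a chosen site, where it hinders transcription (CRISPR interference). In 2 libraries the guide had a scrambled sequence, and in 2 it was the +116 guide, directed against the noncoding RNA of GAL10. Both groups grew on glucose in synthetic medium lacking leucine and uracil, from an optical density of 0.1 to 0.4, and the libraries of each group are called A and B. The labels do not say whether A and B came from separate cultures, so p-values reflect only the spread among these libraries, which may be technical.

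Chaperones bind unfolded protein, and many of them release it through cycles of ATP hydrolysis. Hsp70 proteins take up exposed hydrophobic stretches that Hsp40 proteins bring to them, nucleotide exchange factors reset the cycle, and Hsp90 acts later on a narrower set of clients. Many chaperones exist in yeast as a constitutive copy and a heat-inducible copy. The transcription factor Hsf1 binds heat shock elements, arrays of inverted GAA units, and keeps basal transcription of many of these genes. The factors Msn2 and Msn4 bind the stress response element, whose core is AGGGG, and induce a broader set of genes under stress and when glucose runs out.

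The libraries held 34215480 to 40628383 gene-assigned reads. The values are normalized read counts, that is, reads divided by 1 size factor per library. All 38 genes passed the filter of a mean of at least 5 that 6277 genes passed, and the lowest count of any of them in any library was 1005 reads. The strain's mating type was checked with its mating genes. STE2, the receptor on cells of type a, had 25638 to 26546 normalized reads, whereas STE3, the receptor on cells of type alpha, had 302.0 to 378.2. GAL1 was at 410.6 and 468.9 normalized reads in scrambled A and B and at 133.0 and 115.7 in +116 A and B. GAL10 was at 95.0 and 112.9, then at 192.0 and 171.0. The sources used here name no strand setting for the counting, so reads of GAL10 and of a noncoding RNA overlapping it cannot be told apart, and the noncoding RNA itself was not analysed here.

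The sequences of 2 sets of regions are shown first. The promoters below belong to the 4 genes with the largest log2 folds. Each runs from 250 to 101 bases upstream of the start codon, 5′ to 3′ on the strand of the gene, in the R64 assembly of RefSeq. HSP78 and SSE2 lie on the minus strand and HSP42 and HSP104 on the plus strand. Capitals mark the core AGGGG or CCCCT of the stress response element and any 3-unit heat shock element, which is GAA, TTC and GAA or TTC, GAA and TTC with 2 free bases between units.
HSP78: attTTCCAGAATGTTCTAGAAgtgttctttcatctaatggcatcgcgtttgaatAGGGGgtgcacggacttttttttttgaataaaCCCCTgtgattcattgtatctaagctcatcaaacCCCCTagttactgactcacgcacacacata
SSE2: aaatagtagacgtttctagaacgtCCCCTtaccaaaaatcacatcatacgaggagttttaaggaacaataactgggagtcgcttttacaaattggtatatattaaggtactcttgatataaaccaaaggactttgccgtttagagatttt
HSP42: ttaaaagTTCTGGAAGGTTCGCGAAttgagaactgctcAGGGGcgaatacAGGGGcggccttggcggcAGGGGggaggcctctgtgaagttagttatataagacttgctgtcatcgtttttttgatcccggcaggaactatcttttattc
HSP104: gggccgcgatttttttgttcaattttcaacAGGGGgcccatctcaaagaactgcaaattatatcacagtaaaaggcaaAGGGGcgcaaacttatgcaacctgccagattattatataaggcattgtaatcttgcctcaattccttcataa

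In these windows HSP78 and HSP42 each held 3 AGGGG cores and 2 overlapping 3-unit heat shock elements. HSP104 held 2 cores and SSE2 held 1, and neither held a 3-unit element. Both motifs were searched on both strands of the 250 bases before every start codon. A core was found in 8 of the 38 chaperone promoters (21.1%) and in 18.9% of 5793 promoters of tested genes. A 3-unit element was found in 8 of 38 (21.1%) and in 0.777% of the 5793. A 2-unit element, GAA and TTC in either order with the same spacing, was found in 50% of the chaperone promoters and in 19.5% of the 5793. The promoters with a 3-unit element were those of SSA2, STI1, SSE1, FES1, HSP42, HSP78, HSP60 and HSP10. A match is a run of letters and does not show that a factor binds there.

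The second set shows how far paralogous copies can be told apart by sequence. The windows below are the 60 aligned bases, without gaps, at which SSE1 differs most from SSE2 and HSC82 differs most from HSP82, with differing letters in capitals. They start at base 240 of both SSE coding sequences, at base 1208 of HSC82 and at base 1220 of HSP82, counted from the first base of the start codon.
SSE1: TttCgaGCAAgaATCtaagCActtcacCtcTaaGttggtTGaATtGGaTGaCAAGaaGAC
SSE2: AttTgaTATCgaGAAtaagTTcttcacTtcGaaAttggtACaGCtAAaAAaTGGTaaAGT
HSC82: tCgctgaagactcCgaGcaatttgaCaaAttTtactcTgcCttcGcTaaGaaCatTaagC
HSP82: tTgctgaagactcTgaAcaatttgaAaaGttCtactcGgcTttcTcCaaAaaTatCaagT

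The SSE pair differed at 29 of the 60 bases and the Hsp90 pair at 14. Over the whole coding sequence SSE1 and SSE2 were 72.0% identical, with no shared window of 50 bases. HSC82 and HSP82 were 91.7% identical and shared 6.39% of the windows of HSP82. SSB1 and SSB2 were 97.4% identical, with an unbroken identical run of 563 bases, and shared 43.2% of their windows. SSA1 and SSA2 were 96.4% identical and shared 57.9% of the windows of SSA1. No window of the other 32 genes recurred in the genome. The sources used here state neither the read length nor how reads that map to several places were counted. The split of reads within the SSA1 and SSA2 pair and the SSB1 and SSB2 pair is therefore uncertain. The same holds, over a smaller share of the sequence, for HSC82 and HSP82 and for their ratio.

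Among the 38 genes, HSP78 and SSE2 were higher with the +116 guide. These were 2 of 38 (5.26%), where 0.51% of all tested genes were called higher at a limma adjusted p under 0.05. None of the 38 was called lower, against 0.335% of all tested genes, and edgeR also called 0 lower against a background of 0.956%. Before adjustment, 10 of 38 (26.3%) had a limma p under 0.05, against 21.8% of all tested genes, with 6 of the 10 above 0 and 4 below. The log2 folds of the 38 were small, with 17 above 0 and 21 below. Their median was −0.0075 beside 0.0013 for all tested genes, and their median absolute size was 0.0586 beside 0.0864. The filter admitted genes with a mean of 5 or more, whereas no chaperone gene had under 1005 reads in any library. The chaperone genes were also longer, with a median of 1666.5 bp beside 1224 bp, and 30 of 38 (78.9%) exceeded the latter. After a correction of each library for gene length, given below, the median log2 folds were −0.0383 and 0.0022.

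**Figure D1:**
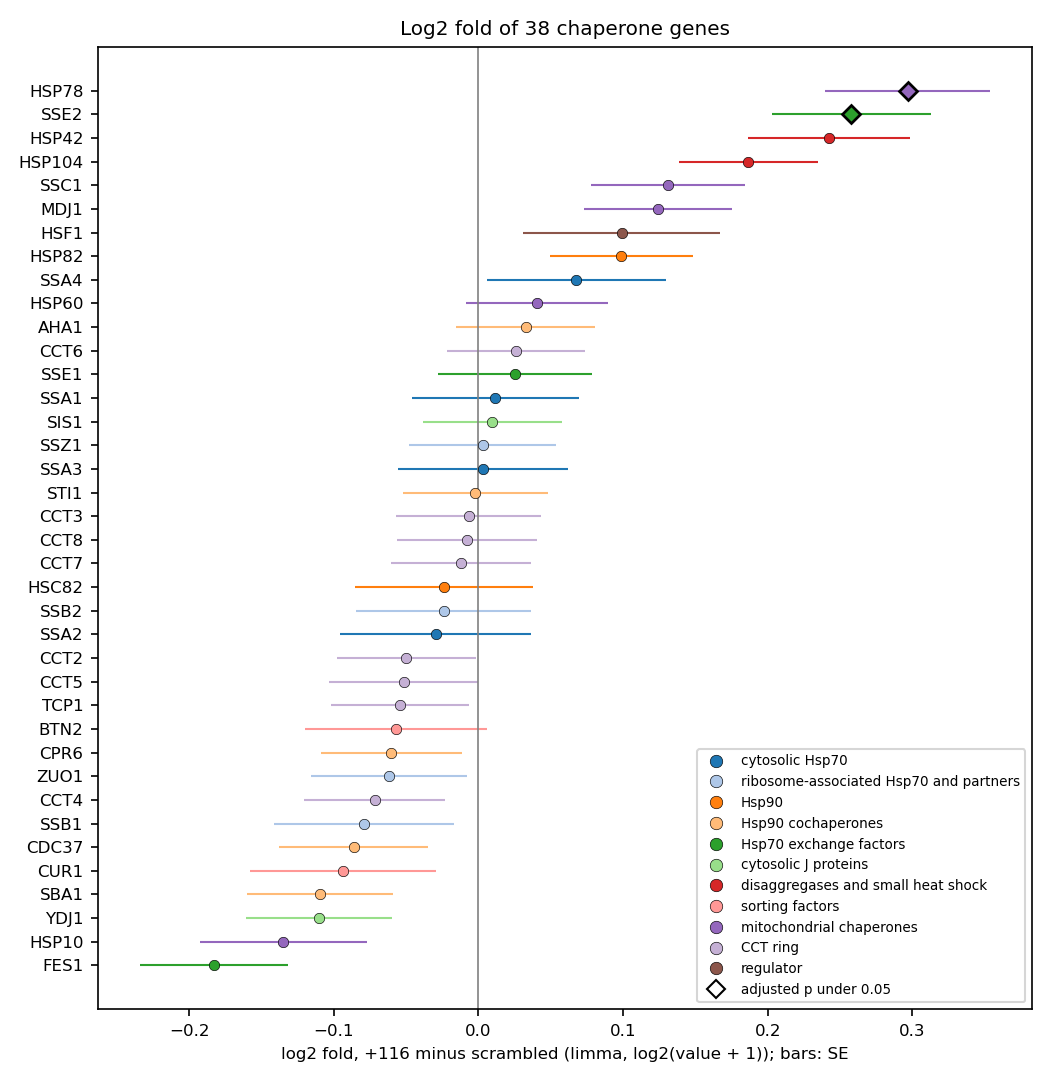
Log2 fold of each chaperone gene between the +116 and the scrambled libraries, with bars for the limma SE, colours for the role and diamonds for genes with a limma adjusted p under 0.05. HSP78 (0.30) and SSE2 (0.26) are the 2 diamonds at the top, HSP42 and HSP104 follow, and FES1 (−0.18) is at the bottom.

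HSP78 (YDR258C) encodes the mitochondrial relative of the disaggregase Hsp104, which returns aggregated matrix proteins to solution. It had 4069 and 4302 normalized reads in scrambled A and B, and 5370.5 and 4917 in +116 A and B. Both +116 libraries lay above both scrambled libraries, with +116 A the highest. HSP78 rose 1.23-fold, by 0.30 ± 0.0567 (SE) on the log2 scale (limma adjusted p = 0.0413). In RNA from a whole culture, more cells with a transcript and more of it per cell cannot be told apart.

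SSE2 (YBR169C) encodes the stress-inducible copy of Hsp110, a nucleotide exchange factor for Hsp70. Its values were 1900.2 and 1919.6 normalized reads in scrambled A and B, and 2255 and 2313 in +116 A and B. The groups did not overlap, and within each group the libraries lay close together. SSE2 rose 1.20-fold, by 0.26 ± 0.0552 (SE) on the log2 scale (limma adjusted p = 0.0477). The constitutive copy SSE1 (YPL106C), with 40889 and 42559 normalized reads in the scrambled libraries and 42356 and 42552 in the +116 libraries, had overlapping groups and a log2 fold of 0.03 ± 0.0533 (SE).

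HSP42 (YDR171W) and HSP104 (YLL026W) did not pass the limma threshold. Hsp42 is a small heat shock protein that gathers misfolded proteins into deposits, and Hsp104 is the disaggregase of the cytosol. HSP42 was at 1957 and 2052 normalized reads with the scrambled guide and at 2371 and 2370.5 with +116, a difference of 0.24 ± 0.0558 (SE) on the log2 scale (limma adjusted p = 0.0549). HSP104 was at 11199 and 11041 with the scrambled guide and at 12801 and 12509 with +116, a difference of 0.19 ± 0.0479 (SE) on the log2 scale (limma adjusted p = 0.0692). In both genes the groups did not overlap. With edgeR on the recovered reads HSP42 was called higher (adjusted p = 0.0347) and HSP104 was not (adjusted p = 0.0754). The edgeR calls thus were HSP78, SSE2 and HSP42, 3 of 38 (7.89%), where edgeR called 1.69% of all tested genes higher.

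The calls of HSP78 and SSE2 were not kept in every fit. Without scrambled A the log2 folds were 0.26 and 0.25 (limma adjusted p = 0.160 and 0.154), and without scrambled B they were 0.34 and 0.27 (limma adjusted p = 0.661 for both). In both of these fits limma called 0 of the 6277 tested genes, with 1341 and 448 at an unadjusted p under 0.05. Across all tested genes the log2 fold rose with gene length, by 0.0548 per doubling, and HSP78 and SSE2 are 2436 and 2082 bp long. Genes within 10% of those lengths had median log2 folds of 0.079 and 0.0652. After each library was corrected for length, the log2 folds were 0.22 for HSP78, 0.20 for SSE2, 0.26 for HSP42 and 0.10 for HSP104 (limma adjusted p = 0.252, 0.219, 0.219 and 0.328), and none of these was called.

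**Figure D2:**
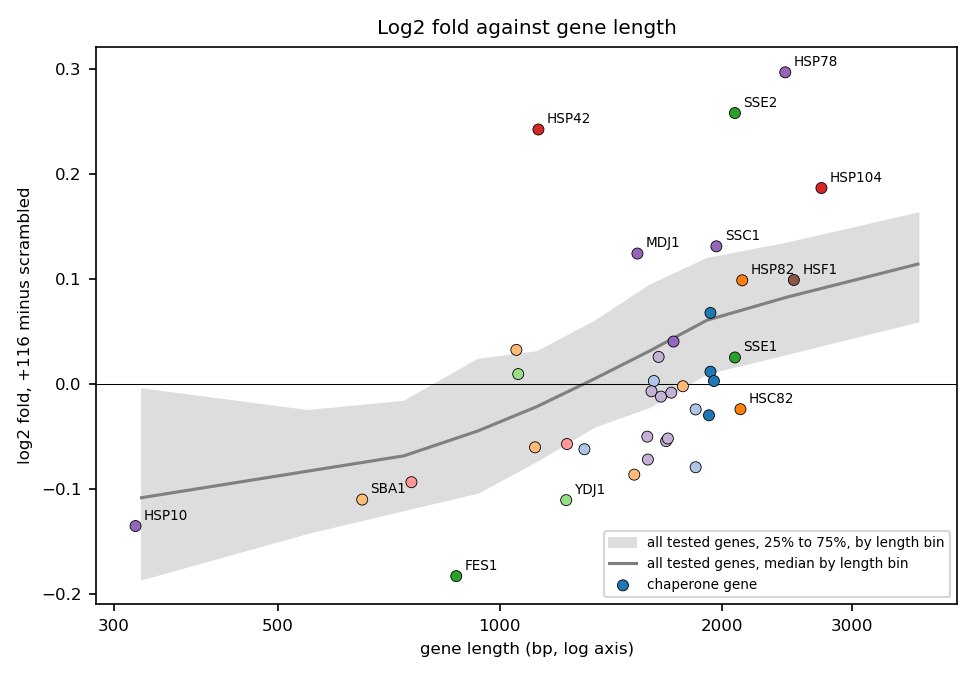
Log2 fold (+116 minus scrambled) against gene length on a log axis for the 38 chaperone genes (points coloured by role as in the plot of log2 folds), over the median and the 25% to 75% range of all tested genes in 10 length bins. HSP78, SSE2, HSP42 and HSP104 are among the genes above the grey range at their lengths, and FES1, YDJ1 and HSC82 are among those below it.

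**Figure D3:**
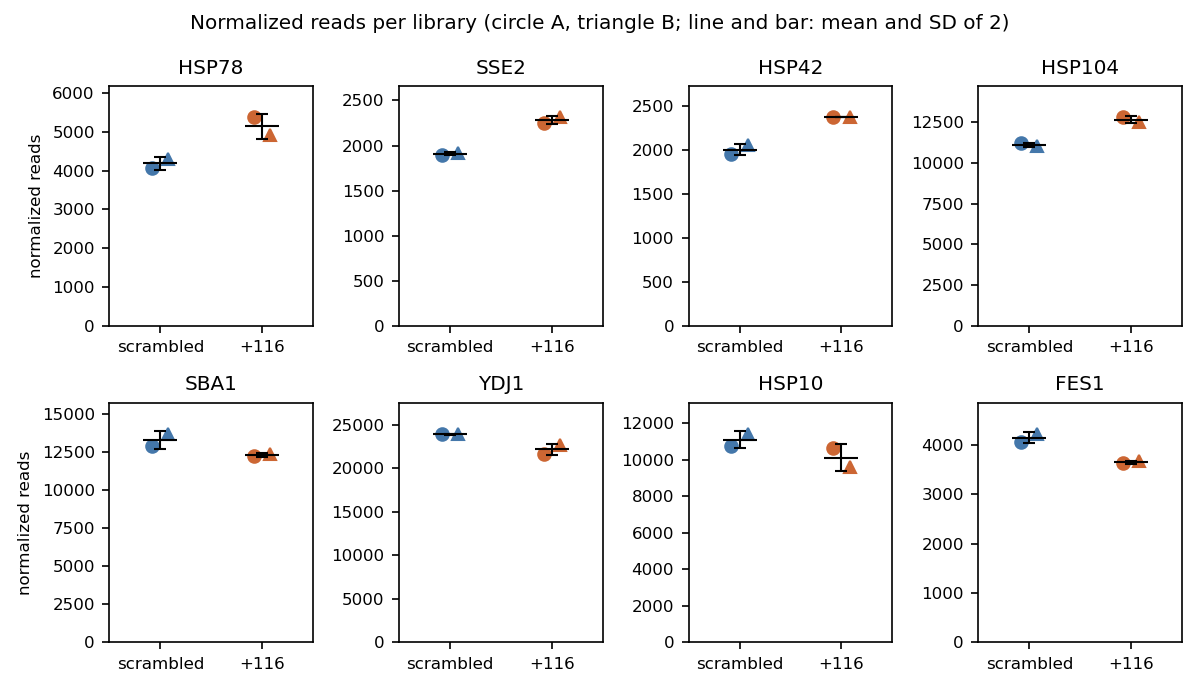
Normalized reads in each library for the 4 chaperone genes with the largest and the 4 with the smallest log2 folds, circles for library A and triangles for library B, with the mean and SD of 2 libraries. In all 8 genes the +116 values lie on 1 side of the scrambled values, but the genes were picked by these same values. Of all tested genes, 27.3% had no overlap with +116 higher and 26.3% with +116 lower.

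At the lower end stood FES1, HSP10, YDJ1 and SBA1, none of which passed the threshold. FES1 (YBR101C), a nucleotide exchange factor for cytosolic Hsp70, had 4065 and 4226 normalized reads with the scrambled guide and 3629 and 3675 with +116. Its groups did not overlap, and its log2 fold was −0.18 ± 0.0509 (SE; limma adjusted p = 0.0854) and −0.13 after the length correction. HSP10 (YOR020C), the lid of the mitochondrial chaperonin and the shortest of the 38 genes at 321 bp, had 10753 and 11411 normalized reads and then 10624 and 9578, with a log2 fold of −0.14 (limma adjusted p = 0.198). Without +116 A the HSP10 log2 fold was −0.21 and called (limma adjusted p = 0.0469), and after the length correction it was −0.02.

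YDJ1 (YNL064C), the main Hsp40 of the cytosol, had 23960.0 and 23880.2 normalized reads with the scrambled guide and 21689.9 and 22635 with +116. SBA1 (YKL117W), the p23 cochaperone that binds Hsp90 in its closed state, had 12894 and 13716, then 12247 and 12399.6. The groups did not overlap in either gene, with log2 folds of −0.11 and −0.11 (limma adjusted p = 0.221 and 0.224), and −0.10 and −0.03 after the length correction. The other Hsp40 of the cytosol in the set, SIS1 (YNL007C), had 13069 to 13466 normalized reads over all 4 libraries and a log2 fold of 0.01.

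The cytosolic Hsp70 genes of the SSA family did not pass the test, and in all 4 the groups overlapped. Their log2 folds were 0.01 for SSA1 (YAL005C), −0.03 for SSA2 (YLL024C), 0.0029 for SSA3 (YBL075C) and 0.07 for SSA4 (YER103W). After the length correction they ran from −0.08 for SSA2 to 0.01 for SSA4. SSA1 and SSA2 supply the Hsp70 of growing cells, while SSA3 and SSA4 are heat-inducible. SSA2 had 145243 and 149054 normalized reads with the scrambled guide and 140679 and 147682 with +116, the highest values in the set. SSA1 had 75670.4 and 75460.2, then 74901 and 77484. SSA4 had 1831 and 1877, then 1856 and 2034, with +116 B apart from the other libraries. SSA3 varied least, at 1530.3, 1522, 1545 and 1514.

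The ribosome-bound machinery folds chains as they leave the ribosome. SSB1 (YDL229W) and SSB2 (YNL209W) encode its Hsp70, and ZUO1 (YGR285C) and SSZ1 (YHR064C) the complex that stimulates it. SSB1 had 114610.0 and 117841 normalized reads with the scrambled guide and 108047 and 112015 with +116, without overlap, and a log2 fold of −0.08 (limma adjusted p = 0.489). SSB2 had 97589 and 99363, then 95508 and 98189, with overlap and a log2 fold of −0.02. After the length correction SSB1 was at −0.13 and SSB2 at −0.07 (limma adjusted p = 0.326 and 0.510). ZUO1 and SSZ1 had log2 folds of −0.06 and 0.0029, and their groups overlapped.

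The Hsp90 genes did not pass the test. HSC82 (YMR186W), the constitutive copy, had 87833 and 85875 normalized reads with the scrambled guide and 82657 and 88278 with +116, with overlap and a log2 fold of −0.02. HSP82 (YPL240C), the heat-inducible copy, had 15425 and 15354, then 16086 and 16881, without overlap, and differed by 0.10 ± 0.0496 (SE) on the log2 scale (limma adjusted p = 0.265) and by 0.03 after the length correction. Their cochaperones ranged from −0.11 to 0.03 and none was called. These were STI1 (YOR027W), which links Hsp70 to Hsp90, at −0.0021, CPR6 (YLR216C), a prolyl isomerase, at −0.06, AHA1 (YDR214W), which stimulates the ATPase, at 0.03, CDC37 (YDR168W), which brings kinases, at −0.09, and SBA1. After the length correction HSC82 was at −0.09 and CDC37 at −0.11 (limma adjusted p = 0.429 and 0.306).

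The mitochondrial genes besides HSP78 and HSP10 had log2 folds above 0. SSC1 (YJR045C), the matrix Hsp70 that also drives import, had 32149.5 and 32128 normalized reads with the scrambled guide and 34186 and 36233 with +116. MDJ1 (YFL016C), its Hsp40, had 3247 and 3162, then 3482 and 3503. HSP60 (YLR259C), the chaperonin, had 20208 and 20604, then 21073 and 20898. In all 3 the +116 libraries lay above the scrambled ones, at log2 folds of 0.13, 0.12 and 0.04 (limma adjusted p = 0.182, 0.188 and 0.659). After the length correction they were 0.07, 0.10 and 0.00015.

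The CCT ring, the cytosolic chaperonin that folds actin and tubulin, gave no call among its 8 subunit genes. The log2 fold was 0.03 for CCT6 (YDR188W) and below 0 for the other 7, from −0.0069 for CCT3 (YJL014W) to −0.07 for CCT4 (YDL143W), with a lowest limma adjusted p of 0.412. Between them lay CCT8 (YJL008C), CCT7 (YJL111W), CCT2 (YIL142W), CCT5 (YJR064W) and TCP1 (YDR212W). After the length correction all 8 were below 0, from −0.0084 for CCT6 to −0.10 for CCT4, and none was called. The median of the CCT genes was −0.03 before and −0.06 after the correction. The groups did not overlap in 4 of the 8, namely CCT6 above and TCP1, CCT2 and CCT4 below. Over the 38 genes 9 (23.7%) had no overlap with +116 higher and 11 (28.9%) with +116 lower, against 27.3% and 26.3% of all tested genes.

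The sorting factors BTN2 (YGR142W) and CUR1 (YPR158W), paralogues that direct misfolded proteins to deposits, had log2 folds of −0.06 and −0.09. CUR1 had 1089 and 1101 normalized reads with the scrambled guide and 1029.9 and 1023 with +116, the lowest values in the set. BTN2 had 1525 and 1662, then 1517 and 1544, with overlap. HSF1 (YGL073W), the activator of the heat shock genes, had 3033 and 2606 normalized reads with the scrambled guide and 2935 and 3089.6 with +116. Scrambled B was the low library, and the log2 fold of 0.10 (limma adjusted p = 0.419) became 0.21 without scrambled A and −0.01 without scrambled B, which is uncalled in both fits. After the length correction it was 0.02.

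Levels of different genes were compared as normalized reads per kilobase, averaged over the 4 libraries. SSA2 was highest, at 75867 ± 1916 (SD, n = 4), followed by SSB1 at 61416 ± 2249 and SSB2 at 53019.7 ± 876.4. HSC82 (40680.1 ± 1208) and SSA1 (39336 ± 579.8) followed, and their ranges over libraries overlapped, although HSC82 was the higher in 4 of 4. The split between SSB1 and SSB2 and between SSA1 and SSA2 carries the uncertainty of shared sequence given above, as does, over a smaller share, that between HSC82 and HSP82. Next came HSP10, ZUO1 and SSE1, each apart from the gene before it.

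Below these, neighbours from SSE1 through SBA1, YDJ1 and SSC1 to SSZ1 overlapped, from 20216 ± 386.9 to 16554 ± 275.1 (SD, n = 4). SIS1, HSP60, STI1, CPR6 and AHA1 followed at separate levels, and AHA1 overlapped HSP82 (7482 ± 333.8). The CCT genes filled the ranks after HSP82, from CCT6 at 6756 ± 89.6 to CCT8 at 4983 ± 77.9 (SD, n = 4). Within each library the highest CCT gene, CCT6, stood 1.33-fold to 1.41-fold above the lowest, CCT8. At the foot of the order HSF1 (1165 ± 86.5), SSE2 (1007 ± 104.4) and SSA4 (984.6 ± 47.5) each overlapped the gene before it, and SSA3 lay apart and lowest at 783.4 ± 6.83 (SD, n = 4).

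**Figure D4:**
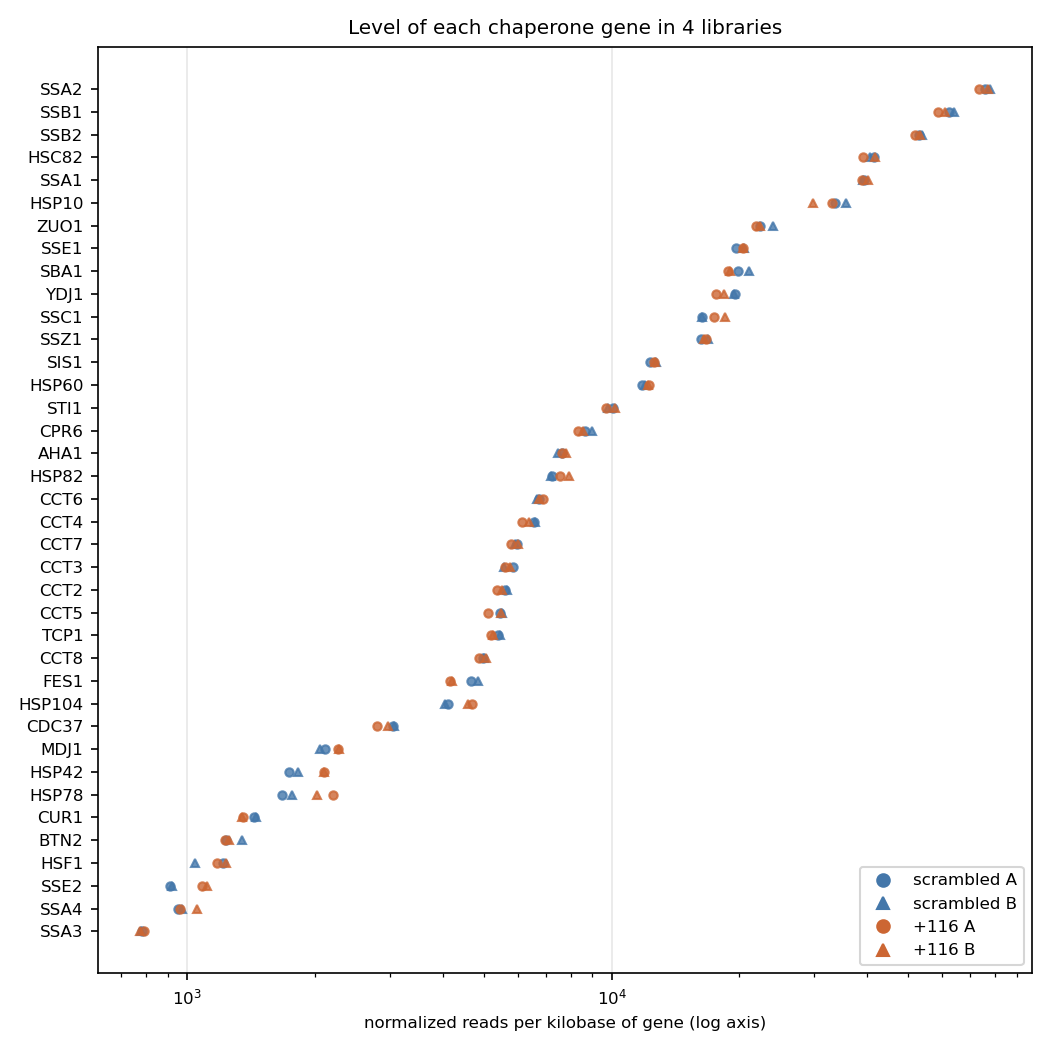
Normalized reads per kilobase of gene, on a log axis, for the 38 chaperone genes in each of the 4 libraries, ordered by their mean. Constitutive SSA2, SSB1, SSB2 and HSC82 are at the top, inducible SSE2, SSA4 and SSA3 at the bottom, and the CCT genes form a narrow band whose 4-library means run from 4983 to 6756.

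The constitutive copy was above the inducible copy in every library. HSC82 stood 5.73-fold and 5.62-fold above HSP82 in scrambled A and B and 5.17-fold and 5.26-fold in +116 A and B, per kilobase. SSE1 stood 21.5-fold and 22.2-fold above SSE2 with the scrambled guide and 18.8-fold and 18.4-fold with +116. SSA2 stood 79.7-fold and 79.7-fold above SSA4, then 76.1-fold and 72.9-fold, and 92.4-fold to 99.4-fold above SSA3. The groups did not overlap for HSC82 over HSP82, SSE1 over SSE2 and SSA2 over SSA4, with the +116 ratio the lower in each. They overlapped for SSA2 over SSA3. Among single tested genes 27.3% had no overlap with +116 higher and 26.3% with +116 lower, and no such share was computed for ratios of other gene pairs.

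The log2 ratio changed by −0.12 for HSC82 over HSP82 (pooled SD 0.0181), by −0.23 for SSE1 over SSE2 (0.0263) and by −0.10 for SSA2 over SSA4 (0.0309). For SSB1 over SSB2 it changed by −0.05 (0.0093) and for SSA2 over SSA1 by −0.04 (0.0232), also without overlap. For SSA2 over SSA3 (−0.03), SSA4 over SSA3 (0.06) and BTN2 over CUR1 (0.04) the groups overlapped. The 2-sided exact permutation test gave p = 0.333 for each of the 5 ratios without overlap, which is the smallest p that 2 against 2 libraries allow. That test cannot pass a threshold of 0.05 at this size, so the ratios stand as values with their spread. The 2 copies of the HSC82 and SSE pairs have nearly or exactly the same length. A correction by length therefore could hardly move these changes, which were −0.12 and −0.23 after it, and it is no check on them.

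**Figure D5:**
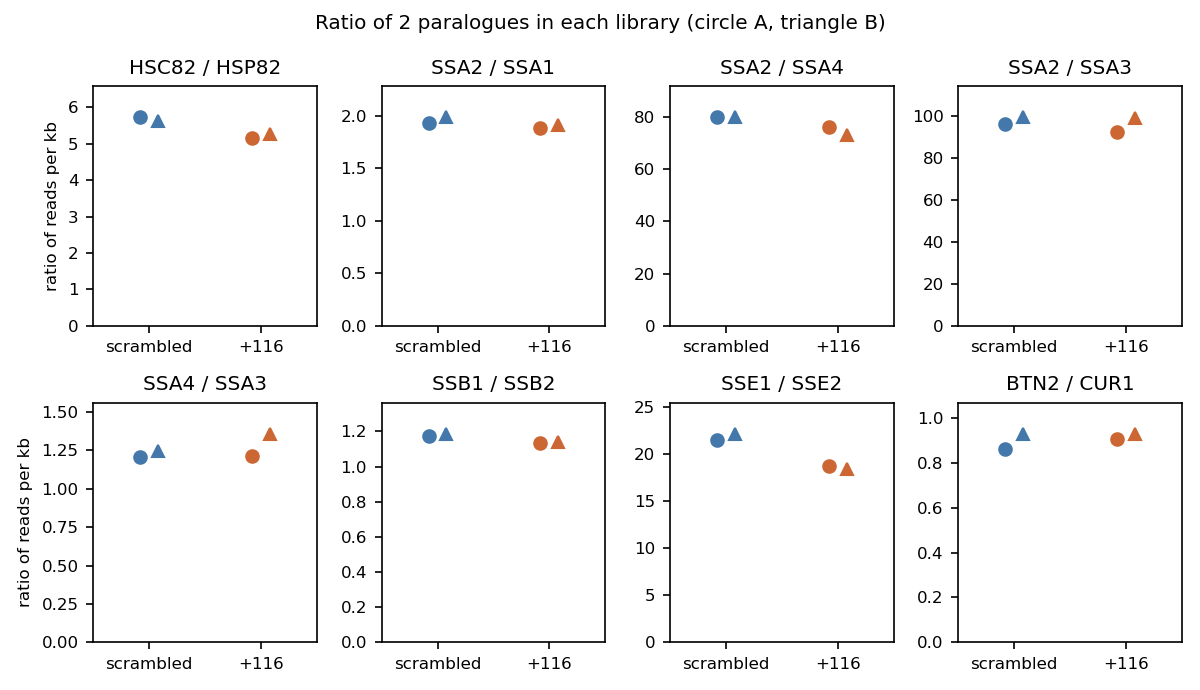
Ratio of the normalized reads per kilobase of 2 paralogues in each library, circles for library A and triangles for library B, with every axis starting at 0. The SSE1 to SSE2 ratio goes from 21.5 and 22.2 in the scrambled libraries to 18.8 and 18.4 in the +116 libraries.

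The log2 folds were also set out by promoter motif, a division made after the values were seen and given without a test. The 8 chaperone genes with an AGGGG core were SSA1, SSA4, HSP82, SBA1, SSE2, HSP104, HSP42 and HSP78. Their median log2 fold was 0.14, with 7 of 8 above 0, and that of the 30 without a core was −0.02, with 10 above 0. After the length correction the medians were 0.07 and −0.05. HSP78, SSE2, HSP42 and HSP104, which had the largest log2 folds of the chaperone genes, are part of these 8. Their place there is already in the median and adds nothing to it. Over all tested genes with a promoter window the medians were 0.03 for 1095 genes with a core and −0.0021 for 4698 without. Of these, limma called 7 of the 1095 and 25 of the 4698 higher. For the 8 chaperone genes with a 3-unit heat shock element the median was 0.01, beside −0.01 for the 30 without. After the length correction these medians were −0.03 and −0.04. Over all tested genes they were −0.0087 for 45 genes with a 3-unit element and 0.0038 for 5748 without. With a 2-unit element the median was −0.01 for 19 chaperone genes, beside −0.0069 for the 19 without.

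Other genes of the folding network were read from the same fit, in lists chosen with earlier results of these data known. No gene of these lists was called by limma. All 8 prefoldin and phosducin genes, whose products pass actin and tubulin to CCT or act with it, had log2 folds below 0, with a median of −0.14, and 7 of the 8 had an unadjusted limma p under 0.05, as had 21.8% of all tested genes. PFD1 was at 1739 and 1839.6 normalized reads with the scrambled guide and at 1523 and 1469 with +116, and YKE2 at 2341 and 2389.7, then 2006 and 2005, with log2 folds of −0.26 and −0.24 (limma adjusted p = 0.0549 for both, edgeR adjusted p = 0.0356 and 0.0347). GIM4, PLP2 and GIM5 had −0.19, −0.13 and −0.13. PFD1 and YKE2 are 330 and 345 bp long, and in the shortest of 10 length bins, around 327 bp, the median over all tested genes was −0.11 on the log2 scale. All 8 genes are short, at 330 to 861 bp, beside a median of 1224 bp for tested genes. The 21.8% is therefore not a share over genes of like length. After the length correction PFD1 and YKE2 had −0.14 and −0.12, and the 8 genes ran from −0.14 to −0.0082.

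Of 8 further cochaperones 7 were below 0, with a median of −0.07 and CNS1, which acts with Hsp90, at −0.16 (limma adjusted p = 0.114). Of 9 further J proteins 5 were below 0, with a median of −0.03 and JJJ3 at −0.18, or −0.09 after the length correction. The subunits of the nascent chain complex EGD1 and EGD2 had −0.13 and −0.12, and −0.03 each after the length correction, and BTT1 did not have a p under 0.05. Of 11 genes of mitochondrial import and folding 6 were below 0, with a median of −0.01, ZIM17 at −0.17 and the protease gene PIM1 at 0.11, which the length correction moved to −0.08 and 0.0097. Of 6 other heat and stress genes 3 were above 0 and 3 below, with a median of −0.03. Among these HSP30, a plasma membrane protein gene, had 161.9 and 196.1 normalized reads, then 136.0 and 143.8, a log2 fold of −0.35 (limma adjusted p = 0.169).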

How the data were processed

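Poly(A) RNA was sequenced from 4 stranded libraries. The authors deposited 1 table of normalized read counts, a signal made by dividing gene counts by 1 size factor per library. Software named, with no order or role, in the submitters' processing notes comprised TopHat and TopHat2 2.0.8, Bowtie2, DESeq2, Picard 1.84, Trimmomatic 0.30 and bcl2fastq 1.8.4. The build, annotation, counter and strand setting were not given in the sources used here, and coordinates are therefore left out. All values (100%) were whole multiples of 1 step per library within 1e-06 of a read, which gave back the reads.

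The 38 genes, the lists and the pairs were chosen with earlier results of these data known. All 38 matched a locus tag of the R64 RefSeq annotation, none with an intron. Lengths and promoter and coding sequences were read from R64, with alignment in Biopython 1.88. Genes with a mean of at least 5 entered a limma 3.58.1 (R 4.3.3) fit with a variance trend on log2(value + 1), so fold changes are on that scale. Tests were two-sided, adjusted by Benjamini-Hochberg over 6277 genes, with a threshold of 0.05. Alternatives were edgeR 4.0.16 and DESeq2 1.42.0 on the recovered reads, other pseudocounts (0.5, 8), filters and scaling, no trend, a replicate block, a loess length correction (5806 genes with a length) and leaving out each library. Fits were tested on simulated data without a length trend, with planted log2 folds larger than that of any of the 38 genes. That simulation therefore does not bear on log2 folds as small as those reported. All 38 genes are named. Values per library are given for paralogue pairs, for calls by limma or edgeR and for the 4 largest and 4 smallest folds. Values in SSC1, MDJ1, HSP60 and HSF1 were added after they were seen. Of other lists, genes with an unadjusted p under 0.05 are named, at most 6 per list. Some items are not reported here.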

Additional observations from a re-analysis of the deposited data

How the results depend on the processing

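The count of chaperone genes called higher, 2 in the limma fit as reported, was 1 with a pseudocount of 8, 4 with DESeq2, and 0 with no filter on low values, without a trend and after the length correction. Leaving out 1 library gave 0 to 3. In the length-corrected fit 11 of 38 (28.9%) had an unadjusted limma p under 0.05, against 799 of all 5806 genes in that fit. These 11 lay on both sides of 0, as with HSP42 at 0.26 and SSB1 at −0.13. The counts without scrambled A and without scrambled B were both 0, and in these fits 0 of all tested genes were called in either direction (1341 and 448 at an unadjusted p under 0.05). The count called lower was 0 in all fits but that without +116 A, where HSP10 made it 1, so its range was 0 to 1. The median log2 fold of the 38 genes was −0.0383 after the length correction, beside 0.0022 for all genes with a length. It was −0.0349 to 0.0122 when 1 library was left out.

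HSP78 kept its call in 9 of 14 alternatives, at log2 folds of 0.23 to 0.36, and SSE2 in 8 of 14, at 0.24 to 0.28. In the others, where the calls were lost, the log2 folds were 0.22 to 0.34 and 0.20 to 0.27. HSP42 was called in 7 and HSP104 in 1, DESeq2 (adjusted p = 0.0309). DESeq2 gave no adjusted p for SSA3, BTN2 and CUR1. No called value changed sign, and 27 of 532 gene values, all uncalled, did. Over all genes, 32 were higher and 21 lower as reported, 106 and 60 with edgeR, 100 and 80 with DESeq2, 82 and 55 with a mean of at least 50, 73 and 76 with upper-quartile scaling, 20 and 12 with a pseudocount of 8, 2 and 5 with no filter, 0 and 1 without a trend, 0 and 1 after the length correction, 132 and 104 when +116 A was left out and 207 and 75 when +116 B was. The cause of the lost calls was not tested.

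With the letters A and B as a replicate block, 3 of the 38 genes were called higher (HSP78, SSE2 and HSP42) and 0 lower, against 170 and 88 of all genes. The labels do not say that the letters pair libraries, and the deviations of same-lettered libraries correlated at −0.0413 across genes. With 2 libraries a group, differences as small as most of those here could not be told from the spread between libraries.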
